A study of Mus musculus with 18 samples.

Results

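The matrix metalloproteinases (MMPs), the ADAMTS proteases and ADAMTS-like proteins, the tissue inhibitors of metalloproteinases (TIMPs) and Ccbe1 were followed in endothelial cells of mouse embryos, those of lymphatic vessels (LEC) and those of blood vessels (BEC). Members were all transcript clusters with a single gene symbol Mmp, Adamts, Adamtsl or Timp followed by a number, or Ccbe1, and where a gene had several clusters the brightest, by its mean on the 18 arrays, stood for it. This gave 50 of the 19938 genes measured. Adamts2 and Mmp15 had no cluster with a single symbol and were not analysed here.

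MMPs are zinc-dependent proteases that cut collagens, gelatin and other matrix proteins, and the ADAMTS proteases cut proteoglycans such as versican and aggrecan, procollagens, or von Willebrand factor. Both kinds are made as inactive precursors, and TIMPs bind and block the active enzymes. In the lymphatic vasculature the best known member is ADAMTS3, which together with the secreted protein CCBE1 cuts the growth factor VEGFC into its active form.

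RNA of LEC at embryonic days 14.5, 16.5 and 18.5 (E14.5, E16.5 and E18.5) and of BEC at the same ages was measured on the Mouse Gene 1.0 ST array of Affymetrix, 3 arrays in each of 6 groups. Per the labels the 3 arrays of a group are biological replicates, and the design text describes the LEC and BEC samples of an age as matched, from 3 litters. No label says which arrays share a litter, so the tests treated the arrays as independent. No treatment or mutant allele is named for any of the 18 arrays, and no strain is named. The title of the series places them in a study of LEC identity and an enhancer bound by GATA2. The labels give the isolation of the cells only by a citation, which was not used here, so the surface markers that separated LEC and BEC are not stated.

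Arrays of a group correlated at 0.976 to 0.992, and array medians lay between 5.434 and 5.582. The interquartile range was 3.182 to 3.362 on the 6 arrays of E18.5 and 3.403 to 3.641 on the 12 earlier ones, so age changes are also given without the E18.5 arrays. All 6 lymphatic endothelial markers (Prox1, Lyve1, Pdpn, Flt4, Reln and Mmrn1) were higher in LEC over the 3 ages, and all 6 blood endothelial markers were lower. Of 4 pan-endothelial markers, Pecam1, Cdh5 and Tek were lower in LEC (-1.19 to -1.05) and Erg did not pass (-0.03). All 4 rose with age, with a median of 0.70 in LEC and 0.63 in BEC, and their part in the results was not tested. Both cell types carried markers of other cells. The mean log2 level of 7 macrophage markers was 6.19 to 8.35 over the LEC arrays and 4.92 to 5.39 over the BEC arrays, and that of 6 mast cell markers 8.35 to 9.94 in LEC and 5.79 to 7.51 in BEC; the part of either list in the differences between the cell types was not tested. In RNA from many cells, fewer cells of a type and less RNA per cell cannot be told apart.

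Levels are log2 values, so a difference of 1 is a 2-fold difference, and levels of different genes are not compared because their probes differ. A gene was called dim on an array at or below 4.657, the 95th percentile of 1194 olfactory and vomeronasal receptor genes over all arrays. By this bound 20 of the 50 members were above background on all 18 arrays, 19 on some and 11 on none. Differences carry the limma standard error (SE), and a gene passed the test at a limma adjusted p under 0.05 (Benjamini-Hochberg over all 19938 genes).

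Averaged over the 3 ages, 7 of the 50 members were higher in LEC than in BEC, where 18.2% of all genes were, and 15 were lower, where 19% of all genes were. The median difference of the members was -0.06, and that of all genes -0.025. By size, 3 members were higher by at least 1 on the log2 scale, namely Adamtsl1, Timp2 and Adamts5. A further 6 were lower by at least that much, namely Adamts9, Mmp28, Adamts12, Adamts18, Adamts7 and Adamts1. Adamtsl3 also measured below -1 but was dim on all LEC arrays, so its difference has only a smaller bound. At E14.5, 5 members were higher (8.6% of all genes) and 9 lower (7.94%). At E16.5, 7 were higher (13%) and 14 lower (12.2%), and at E18.5, 7 were higher (14.6%) and 15 lower (15.9%). With the fit at E14.5 limited to the arrays of that age, 14 were lower, where 10.3% of all genes were. LEC and BEC arrays did not overlap at any of the 3 ages for 4 members that were higher in LEC (8.22% of all genes) and for 11 that were lower (8.05%).

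**Figure D1:**
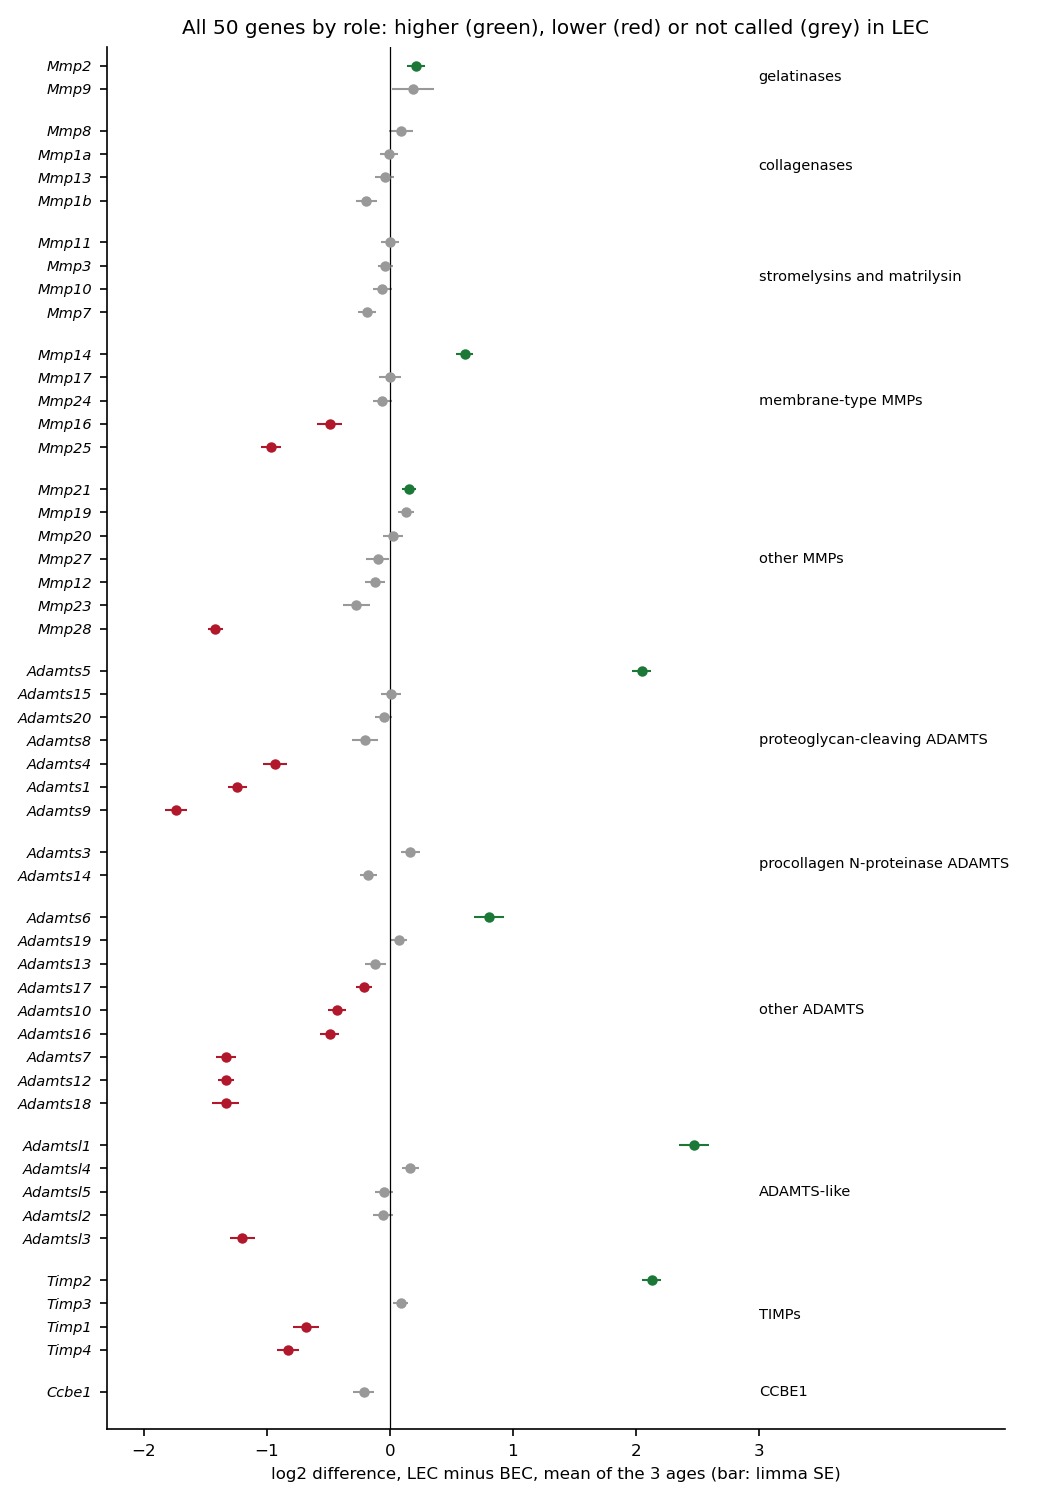
Log2 difference, LEC minus BEC, averaged over the ages (x axis, bar: limma SE) for each of the 50 genes, grouped by role; green passed the test as higher in LEC, red as lower, grey did not pass. Adamtsl1, Timp2 and Adamts5 stand at 2.05 to 2.48, and 7 genes lie below -1, of which Adamtsl3 was dim on all LEC arrays, so that its point is no measure of the size.

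Among the 4 inhibitors, Timp2 was higher in LEC at every age, Timp1 and Timp4 were lower over the 3 ages, and Timp3 did not pass the test over the 3 ages. Timp2 blocks most MMPs and also takes part with MMP14 in activating pro-MMP2. It read 8.32, 8.45 and 8.39 in E14.5 LEC, 9.51, 9.43 and 9.74 in E16.5 LEC and 10.11, 10.41 and 10.35 in E18.5 LEC. Timp2 read 6.54, 6.69 and 6.88 in E14.5 BEC, 7.30, 7.38 and 7.26 in E16.5 BEC and 7.63, 8.12 and 7.74 in E18.5 BEC. Every LEC array was above every BEC array, whatever the age. The difference over the 3 ages was 2.13 ± 0.08 (SE), or 4.37-fold (limma adjusted p = 2.3e-14), and it grew with age (1.68 at E14.5, 2.25 at E16.5, 2.46 at E18.5). The 250 bases before its RefSeq start (GRCm38.p6, chr11:118355412-118355661, minus strand) are shown because Timp2 had the largest difference between LEC and BEC over the 3 ages among the inhibitors, and capitals mark a GC box, the letters GGGCGG on either strand.
Timp2: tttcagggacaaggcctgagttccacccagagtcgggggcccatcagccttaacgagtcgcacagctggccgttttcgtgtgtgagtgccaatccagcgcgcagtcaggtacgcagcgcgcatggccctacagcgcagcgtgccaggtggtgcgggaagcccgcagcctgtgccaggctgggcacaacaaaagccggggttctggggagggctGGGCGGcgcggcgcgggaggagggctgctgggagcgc

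Timp4, an inhibitor with a more restricted tissue distribution than the others, read 4.77, 4.41 and 4.66 in E14.5 LEC, 4.97, 4.86 and 4.51 in E16.5 LEC and 5.09, 5.29 and 5.12 in E18.5 LEC. Timp4 read 4.43, 4.89 and 4.46 in E14.5 BEC, 5.77, 5.38 and 5.47 in E16.5 BEC and 7.05, 6.98 and 6.67 in E18.5 BEC. The groups overlapped at E14.5 near the dim bound, and BEC stood above LEC at both later ages. The difference was 0.02 at E14.5 (limma adjusted p = 0.98), -0.76 at E16.5 (0.00089), then -1.73 at E18.5 (4.1e-08). Timp1, a secreted inhibitor that acts poorly on membrane-type MMPs, read 6.78, 6.51 and 6.34 in E14.5 LEC, 6.40, 6.34 and 6.35 in E16.5 LEC and 6.20, 5.67 and 6.57 in E18.5 LEC. Timp1 read 6.80, 7.19 and 7.03 in E14.5 BEC, 7.12, 7.26 and 6.88 in E16.5 BEC and 6.73, 7.06 and 7.21 in E18.5 BEC. LEC lay below BEC without overlap at each age, narrowly at E14.5, and the difference was -0.68 ± 0.11 over the 3 ages (3.7e-05). At E14.5 alone its difference of -0.46 did not pass (adjusted p = 0.11), but passed when only the arrays of that age were fitted (0.034) or without LEC E18.5 replicate 2 (0.044). Timp3, which binds to the matrix and also blocks ADAM17 and ADAMTS4 and ADAMTS5, averaged 9.59 ± 0.07, 10.34 ± 0.05 and 10.64 ± 0.13 in LEC at the 3 ages in turn, and 9.61 ± 0.01, 10.02 ± 0.10 and 10.68 ± 0.16 in BEC (SD of 3 arrays). Its levels rose with age in both cell types while LEC and BEC stayed within 0.32 of each other. The difference of 0.32 at E16.5 passed the test (0.025) but not without BEC E16.5 replicate 3 (0.12), LEC E16.5 replicate 1 (0.06) or LEC E16.5 replicate 2 (0.087), nor with all arrays shifted to a common median (0.21, adjusted p = 0.16). With that shift the median gene differed by -0.109 at E16.5, against -0.002 as deposited.

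Of the 5 membrane-type MMPs measured, Mmp14 was higher in LEC, Mmp25 and Mmp16 were lower, and Mmp17 and Mmp24 did not pass the test. Mmp14 encodes a membrane-anchored collagenase that activates pro-MMP2. It read 10.28, 10.10 and 10.27 in E14.5 LEC, 9.90, 10.01 and 10.16 in E16.5 LEC and 10.65, 11.09 and 11.03 in E18.5 LEC. Mmp14 read 9.66, 9.55 and 9.68 in E14.5 BEC, 9.66, 9.66 and 9.62 in E16.5 BEC and 9.94, 9.99 and 10.25 in E18.5 BEC. Each LEC array of Mmp14 was above the BEC arrays of its age, and the difference was 0.61 ± 0.07 over the 3 ages (limma adjusted p = 6.4e-07) and 0.87 at E18.5. At E16.5 its difference of 0.38 (0.027) did not pass without any 1 of BEC E16.5 replicates 1, 2 or 3 or LEC E16.5 replicates 2 or 3 (0.057 to 0.12), nor with a common median (0.27, adjusted p = 0.12). Mmp25, a membrane protease anchored through a lipid and known from human leukocytes, read 6.62, 6.45 and 6.58 in E14.5 LEC, 5.64, 5.57 and 5.93 in E16.5 LEC and 6.18, 6.15 and 5.82 in E18.5 LEC. Mmp25 read 7.25, 7.06 and 7.30 in E14.5 BEC, 7.13, 6.95 and 7.05 in E16.5 BEC and 6.65, 7.24 and 6.98 in E18.5 BEC. No LEC array reached a BEC array of its age, with a difference of -0.96 ± 0.08 over the 3 ages (9.8e-09). Mmp16 was dim on all 18 arrays, so its call rests on values at background.

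The gelatinases cut denatured collagen and the type IV collagen of basement membranes. Mmp2, the first of them, was close in LEC and BEC at E14.5 and E18.5 and fell with age in both. It read 9.55, 9.25 and 9.49 in E14.5 LEC, 8.35, 8.41 and 8.57 in E16.5 LEC and 7.41, 7.63 and 7.58 in E18.5 LEC. Mmp2 read 9.41, 9.19 and 9.42 in E14.5 BEC, 7.99, 7.82 and 7.89 in E16.5 BEC and 7.22, 7.79 and 7.59 in E18.5 BEC. LEC stood apart from BEC at E16.5 only, by 0.54 (limma adjusted p = 0.0043), whereas the 2 cell types overlapped at E14.5 (0.09) and E18.5 (0.01). The difference over the 3 ages, 0.21 ± 0.08 (0.035), did not pass with a common median (0.16, adjusted p = 0.095). It also missed the threshold in 9 of the 18 fits that left out 1 array, namely those without BEC E16.5 replicates 2 or 3, BEC E14.5 replicate 2, LEC E14.5 replicates 1 or 3, LEC E16.5 replicate 3, LEC E18.5 replicates 2 or 3, or BEC E18.5 replicate 1 (0.053 to 0.077). Mmp9, the other gelatinase, was above background on 1 array only, and its difference over the 3 ages was 0.19 ± 0.17 (0.43).

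Mmp28 (epilysin), a secreted MMP known from the epidermis, was the MMP with the largest difference between the cell types. It read 6.23, 6.37 and 6.30 in E14.5 LEC, 6.29, 6.54 and 6.71 in E16.5 LEC and 6.18, 6.21 and 6.29 in E18.5 LEC. Mmp28 read 8.06, 8.16 and 8.24 in E14.5 BEC, 7.83, 7.85 and 7.79 in E16.5 BEC and 7.22, 7.42 and 7.31 in E18.5 BEC. Every LEC array was below every BEC array. The difference was -1.42 ± 0.06 over the 3 ages, 2.67-fold lower in LEC (limma adjusted p = 3.5e-13), and shrank with age (-1.85 at E14.5, -1.31 at E16.5, -1.09 at E18.5). Mmp21, the remaining MMP with a call over the 3 ages, was dim on all arrays, as were Mmp1b, Mmp3 and Mmp8, which had calls at single ages or with age. Mmp19 rose with age in LEC by 0.39 (0.0085), with 1 of its 3 LEC arrays of E14.5 above background.

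Most secreted collagenases and stromelysins were dim in both cell types; among them only Mmp11, a stromelysin that is processed by furin-like enzymes, was above background on all 18 arrays, and it did not differ past the test. All 4 collagenases (Mmp1a, Mmp1b, Mmp8 and Mmp13) were above background on none of the 18 arrays. In RefSeq (GRCm38.p6), 10 of the Mmp genes form a run on chromosome 9 with 0 other protein-coding genes between them, in the order Mmp13, Mmp12, Mmp1b, Mmp3, Mmp1a, Mmp10, Mmp8, Mmp27, Mmp20 and Mmp7. Of these 10, 8 were above background on no array, and Mmp10 and Mmp20 on 1 array each. Mmp10, which encodes a stromelysin, had a median of 4.37 over 18 arrays and a highest value of 4.81, and Mmp1a had a median of 2.74 and a highest value of 3.12.

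**Figure D2:**
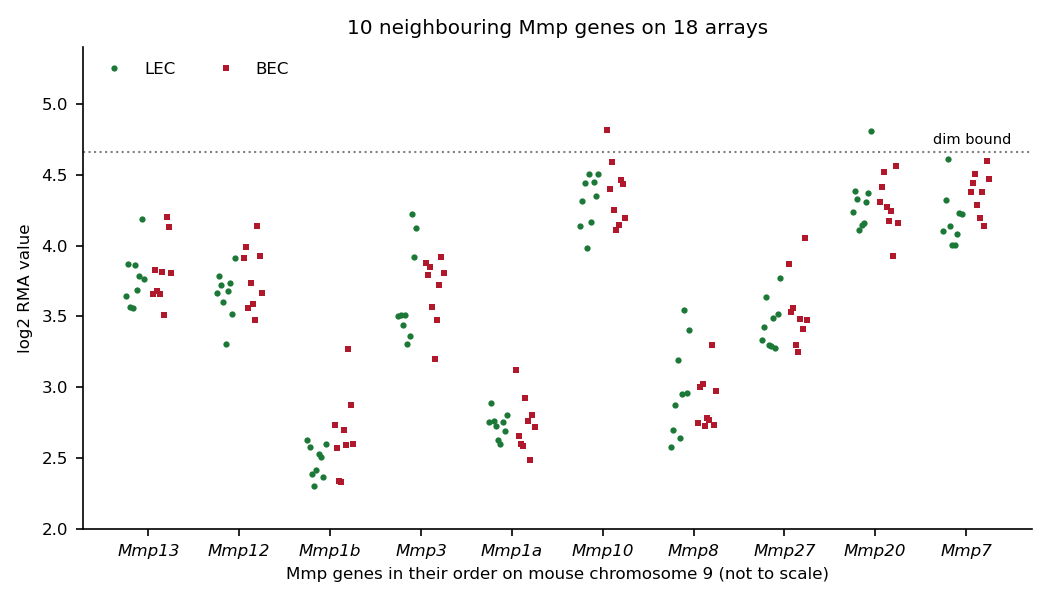
Log2 values of the 10 neighbouring Mmp genes of chromosome 9 (x axis, in their order, not to scale) on the 9 LEC arrays (green circles) and the 9 BEC arrays (red squares); the dotted line is the dim bound of 4.657. Single arrays of Mmp10 and Mmp20 lie above the line, and every other value of the 10 genes lies below it.

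RefSeq promoters (250 bases before to 50 after the start) were at hand for 34 of the 50 members, all 10 genes of this run among them. An AP-1 element (TGAGTCA or TGACTCA, which are the 2 strands of 1 motif) occurred in 7 of the 10 and in 0 of the 24 other members, against 5.2% of 32851 promoters. A GC box (GGGCGG, either strand) occurred in 0 of the 10 and in 20 of the 24 others, against 35.66% of all promoters. A GATA motif (AGATAA or AGATAG or TGATAA or TGATAG, either strand) occurred in 4 of the 10 and in 2 of the 24, against 29.76%. These matches describe letters in a window and do not show that a factor binds there. The 7 AP-1 matches are shown with 17 bases on each side, in capitals and read along the gene, because the dim run shares them and no other matched member has one. They lie at chr9:7272462-7272502 (Mmp13, plus strand), chr9:7347313-7347353 (Mmp12, plus), chr9:7388096-7388136 (Mmp1b, minus), chr9:7445759-7445799 (Mmp3, plus), chr9:7464051-7464091 (Mmp1a, plus), chr9:7502262-7502302 (Mmp10, plus) and chr9:7692010-7692050 (Mmp7, plus), at -93 to -35 from the start of transcription.
Mmp13: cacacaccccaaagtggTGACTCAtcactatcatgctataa
Mmp12: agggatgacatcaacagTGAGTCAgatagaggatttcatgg
Mmp1b: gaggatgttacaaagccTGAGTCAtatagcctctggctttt
Mmp3: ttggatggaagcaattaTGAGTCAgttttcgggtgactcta
Mmp1a: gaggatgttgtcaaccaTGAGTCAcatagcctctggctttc
Mmp10: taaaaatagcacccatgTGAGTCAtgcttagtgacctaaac
Mmp7: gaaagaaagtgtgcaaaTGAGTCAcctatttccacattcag

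Of the 7 ADAMTS proteases that cut proteoglycans, Adamts5 was higher in LEC over the 3 ages (18.2% of all genes). Adamts1, Adamts4 and Adamts9 were lower (19%), and Adamts8, Adamts15 and Adamts20 did not pass the test. The group is small, and nothing particular to it is read from these calls. Adamts20 was dim on all 18 arrays. Adamts15 was above background on 3 arrays, and its fall with age in LEC (-0.41, limma adjusted p = 0.024) ended at background. Adamts5, an aggrecanase that also cuts versican, read 5.57, 5.37 and 5.28 in E14.5 LEC, 7.77, 7.49 and 7.68 in E16.5 LEC and 9.14, 9.02 and 8.9997 in E18.5 LEC. Adamts5 read 4.47, 4.66 and 4.69 in E14.5 BEC, 5.19, 5.32 and 5.47 in E16.5 BEC and 5.82, 5.89 and 6.36 in E18.5 BEC. LEC lay above BEC at each age, and the gap widened: 0.80 at E14.5, 2.32 at E16.5, 3.03 at E18.5, the last an 8.16-fold difference (limma adjusted p = 3.1e-12). The BEC arrays of E14.5 lay around the dim bound.

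Adamts1, which cuts versican and carries thrombospondin repeats, lies next to Adamts5 on chromosome 16 with 0 protein-coding genes between them in RefSeq (GRCm38.p6), yet was lower in LEC. Adamts1 read 8.49, 7.93 and 8.28 in E14.5 LEC, 9.42, 9.53 and 9.35 in E16.5 LEC and 10.93, 10.95 and 10.97 in E18.5 LEC. Adamts1 read 9.96, 9.56 and 9.83 in E14.5 BEC, 10.85, 10.91 and 10.58 in E16.5 BEC and 11.82, 11.70 and 11.81 in E18.5 BEC. LEC was below BEC on every array of an age, by -1.24 ± 0.08 over the 3 ages (limma adjusted p = 8.4e-11). The 250 bases before its RefSeq start (chr16:85803114-85803363, minus strand) hold 3 GC boxes, in capitals, and are shown because Adamts1 rose strongly with age in both cell types.
Adamts1: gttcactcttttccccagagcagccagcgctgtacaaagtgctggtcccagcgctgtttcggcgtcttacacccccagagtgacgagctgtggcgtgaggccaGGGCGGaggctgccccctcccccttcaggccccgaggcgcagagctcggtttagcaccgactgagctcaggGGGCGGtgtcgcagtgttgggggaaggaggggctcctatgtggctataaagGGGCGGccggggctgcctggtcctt

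Adamts9, which cuts versican and aggrecan, read 8.87, 9.10 and 8.39 in E14.5 LEC, 9.84, 9.21 and 9.29 in E16.5 LEC and 9.26, 9.34 and 9.29 in E18.5 LEC. Adamts9 read 10.53, 10.49 and 10.42 in E14.5 BEC, 10.87, 10.95 and 10.91 in E16.5 BEC and 11.44, 11.27 and 11.33 in E18.5 BEC. Every LEC array was below every BEC array, with a difference of -1.74 ± 0.09 over the 3 ages, 3.33-fold lower in LEC (limma adjusted p = 7.3e-12). All 6 clusters of Adamts9 were lower in LEC, by -2.27 to -1.536. Adamts4, the other aggrecanase, read 7.12, 7.05 and 7.39 in E14.5 LEC, 6.37, 6.92 and 6.65 in E16.5 LEC and 7.26, 6.86 and 7.35 in E18.5 LEC. Adamts4 read 7.38, 7.09 and 7.24 in E14.5 BEC, 7.72, 7.92 and 7.70 in E16.5 BEC and 8.59, 9.08 and 8.65 in E18.5 BEC. The cell types overlapped at E14.5 (difference -0.05, adjusted p = 0.92) and not later, when LEC was lower by -1.13 at E16.5 (2.1e-05), then -1.62 at E18.5 (1.9e-07).

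**Figure D3:**
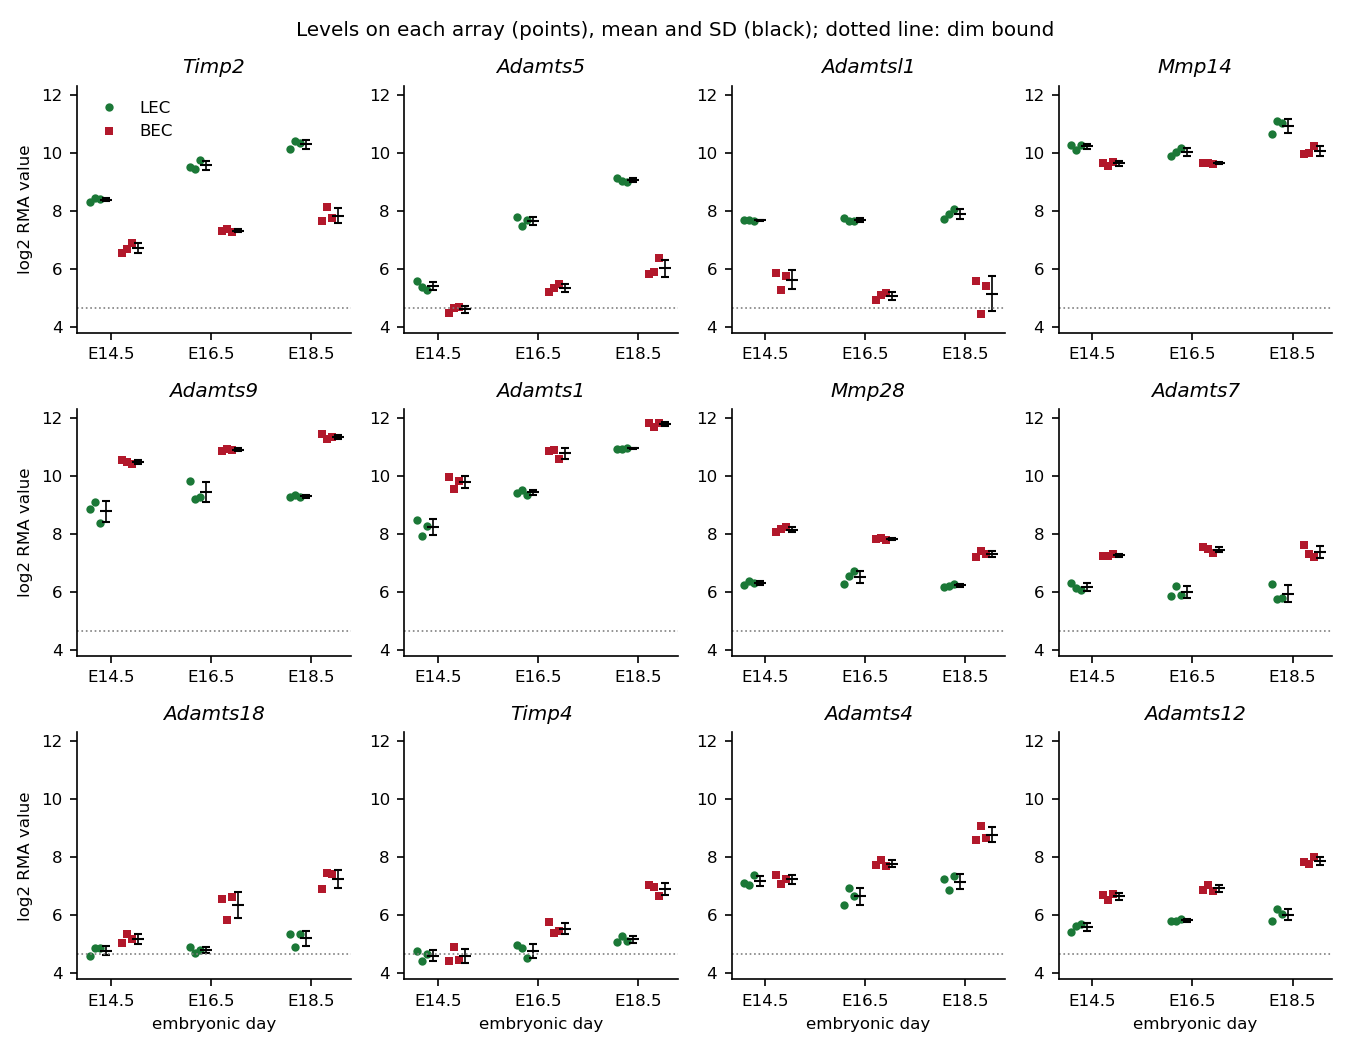
Log2 values of 12 members on each array (points; green circles LEC, red squares BEC; 3 arrays per group) at the 3 ages, with the mean and SD of each group in black and the dim bound as a dotted line. In the top row LEC lies above BEC at each age, in the middle row below it, and in the bottom row Timp4, Adamts4, Adamts12 and Adamts18 of BEC climb away from LEC by E18.5.

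The partners that process VEGFC were Adamts3 and Ccbe1. The brightest cluster of Adamts3 read 6.14, 6.27 and 5.81 in E14.5 LEC, 5.85, 5.998 and 5.92 in E16.5 LEC and 5.77, 5.60 and 5.59 in E18.5 LEC. Adamts3 read 5.86, 5.56 and 5.92 in E14.5 BEC, 5.58, 5.34 and 5.81 in E16.5 BEC and 5.77, 5.80 and 5.81 in E18.5 BEC. The groups overlapped at E14.5, LEC was above BEC at E16.5, and LEC was at or below BEC at E18.5. The difference over the 3 ages was 0.17 ± 0.08 (limma adjusted p = 0.1), and it passed without BEC E16.5 replicate 3 (0.21, adjusted p = 0.044) or LEC E14.5 replicate 3 (0.21, 0.032), or without the E18.5 arrays (0.32, 0.025). Its difference at E14.5 passed without LEC E14.5 replicate 3 (0.43, 0.046), and that at E16.5 after a filter on dim genes (0.35, 0.045) or without BEC E16.5 replicate 3 (0.47, 0.023) or LEC E14.5 replicate 3 (0.35, 0.046). Adamts3 had 16 clusters on the array, and they did not all read alike. All 16 differences over the 3 ages were positive, between 0.13 and 0.94, and 10 of them passed the test. Their mean gave a difference of 0.41 ± 0.05 (3.9e-06), with 0.50 at E14.5 (0.00063), 0.54 at E16.5 (0.00018), then 0.20 at E18.5 (0.11). Only 4 of the 16 clusters were above background on all 18 arrays.

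**Figure D4:**
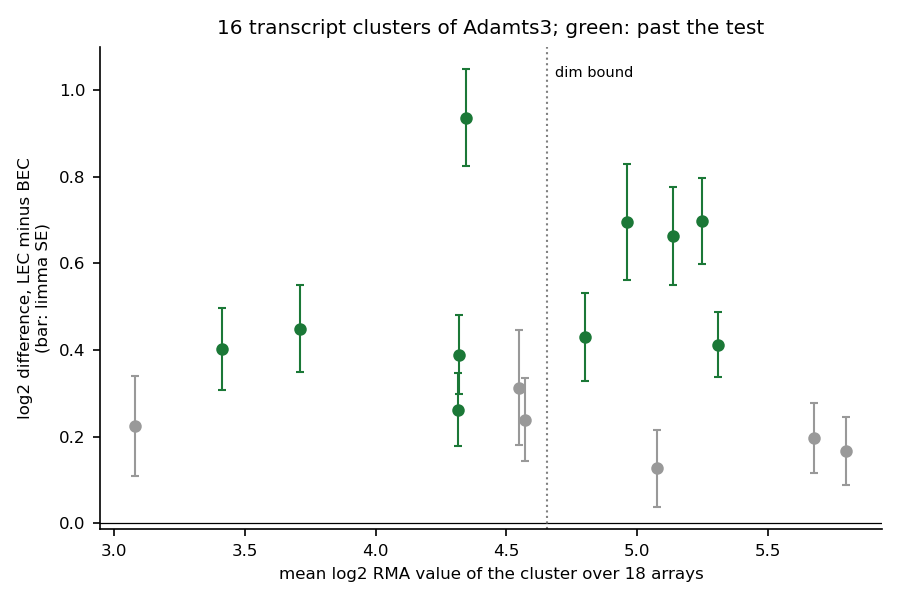
Each point is 1 of the 16 transcript clusters of Adamts3, with its mean log2 value over 18 arrays on the x axis and its LEC minus BEC difference over the 3 ages on the y axis (bar: limma SE); green passed the test, and the dotted line is the dim bound. All 16 points lie above 0, and the brightest, at 0.17, is among those that did not pass.

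Ccbe1 was close to the dim bound in both cell types. It read 4.90, 5.06 and 5.09 in E14.5 LEC, 4.88, 4.84 and 4.97 in E16.5 LEC and 4.61, 4.78 and 5.14 in E18.5 LEC. Ccbe1 read 5.36, 5.28 and 5.37 in E14.5 BEC, 5.30, 4.72 and 4.88 in E16.5 BEC and 4.94, 5.28 and 5.06 in E18.5 BEC. LEC was below BEC without overlap at E14.5 and overlapped with it later. The difference of -0.32 at E14.5 did not pass (limma adjusted p = 0.18), but passed when only the arrays of that age were fitted (0.03), and that of -0.25 at E18.5 (0.22) passed without LEC E18.5 replicate 3 (-0.40, 0.048). Its difference of -0.21 ± 0.08 over the 3 ages did not pass (limma adjusted p = 0.059). It passed with a common median (-0.26, 0.012), among the genes left by a filter on dim values (0.042), and without BEC E16.5 replicate 2 (0.024), BEC E18.5 replicate 1 (0.04) or LEC E18.5 replicate 3 (0.013). Adamts14, a procollagen N-proteinase related to Adamts3, had a difference of -0.18 ± 0.07 that also missed the threshold (0.056). It passed with a common median (0.012), after the filter on dim values (0.039), and when any 1 of LEC E16.5 replicate 3, LEC E18.5 replicate 3, BEC E14.5 replicate 2 and the first BEC array of E18.5 was left out (0.026 to 0.043). Of 5 other genes of the VEGFC axis, the receptors Flt4 (2.03 ± 0.07, adjusted p = 7e-15) and Nrp2 (0.88 ± 0.06, 2.1e-10) were higher in LEC. Vegfc itself (-2.06 ± 0.07, 2.7e-14) and Kdr (-0.40 ± 0.05, 5.9e-06) were lower in LEC, and Vegfd did not pass over the 3 ages (0.13 ± 0.10, 0.34). At E18.5 alone Vegfd was higher in LEC past the test. Between E14.5 and E18.5 Vegfd and Kdr rose in LEC, and Vegfc rose and Flt4 fell in BEC.

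Of the 9 other ADAMTS genes, 6 were lower in LEC over the 3 ages (19% of all genes), 1 was higher (18.2%) and 2 did not pass. The group is small, and nothing particular to it is read from this count. Adamts7 and Adamts12, which both cut cartilage oligomeric matrix protein in vitro, were lower at each age without overlap. Adamts7 read 6.33, 6.14 and 6.07 in E14.5 LEC, 5.86, 6.22 and 5.91 in E16.5 LEC and 6.28, 5.75 and 5.81 in E18.5 LEC. Adamts7 read 7.24, 7.24 and 7.31 in E14.5 BEC, 7.54, 7.49 and 7.36 in E16.5 BEC and 7.61, 7.31 and 7.20 in E18.5 BEC. The change of Adamts7 between E14.5 and E18.5 did not pass in LEC (-0.24, adjusted p = 0.2) or BEC (0.11, 0.62), but passed in LEC without LEC E18.5 replicate 1 (-0.40, 0.022). Its difference between the cell types was -1.33 ± 0.08 (limma adjusted p = 8e-11). Adamts12 read 5.44, 5.63 and 5.71 in E14.5 LEC, 5.81, 5.79 and 5.87 in E16.5 LEC and 5.82, 6.22 and 6.03 in E18.5 LEC. Adamts12 read 6.70, 6.52 and 6.72 in E14.5 BEC, 6.88, 7.05 and 6.84 in E16.5 BEC and 7.82, 7.75 and 8.01 in E18.5 BEC. The gap of Adamts12 was -1.05 at E14.5, -1.10 at E16.5, -1.84 at E18.5, and every LEC array was below every BEC array. Adamts18, a secreted protease of the same family, read 4.60, 4.87 and 4.87 in E14.5 LEC, 4.91, 4.69 and 4.79 in E16.5 LEC and 5.36, 4.90 and 5.36 in E18.5 LEC. Adamts18 read 5.03, 5.36 and 5.17 in E14.5 BEC, 6.56, 5.84 and 6.64 in E16.5 BEC and 6.90, 7.45 and 7.42 in E18.5 BEC. LEC stayed close to the dim bound while BEC moved away from it. The difference of Adamts18 was -0.41 at E14.5 (adjusted p = 0.2, or 0.031 with only the arrays of that age), -1.55 at E16.5 (3.4e-06), then -2.05 at E18.5 (7.9e-08).

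Adamts13, which cuts von Willebrand factor and is made mainly in the liver, ranged from 4.15 to 4.87 in LEC and from 4.18 to 4.99 in BEC, around the dim bound, and did not pass over the 3 ages (-0.12 ± 0.08, limma adjusted p = 0.31). At E18.5 its difference passed without LEC E18.5 replicate 3 (-0.44, 0.04). Of the other ADAMTS genes, those left with a call over the 3 ages were named after their values were seen. Adamts6 was higher in LEC by 0.81 ± 0.12 (2.5e-05). Adamts10 (-0.43 ± 0.07) and Adamts17 (-0.21 ± 0.07) were lower; human ADAMTS10 and ADAMTS17 are known from disorders of fibrillin microfibrils. Of the 5 clusters of Adamts17, only the brightest passed. Adamts16 was also called lower, but was dim on all 9 LEC arrays. BEC was at least 1.34-fold higher at E18.5 (0.00051), the call at E16.5 (0.025) has no fold because the BEC mean itself lay at the bound, and E14.5 did not pass (0.16). Between E14.5 and E18.5, Adamts6 rose in LEC (0.58, limma adjusted p = 0.036) and Adamts10 fell there (-0.37, 0.028). Adamts17 rose in LEC (0.56, 0.00066) and in BEC past the test.

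The ADAMTS-like proteins resemble ADAMTS proteases but lack the protease domain. Of the 5 measured, Adamtsl1 was higher in LEC, Adamtsl3 was lower, and Adamtsl2, Adamtsl4 and Adamtsl5 did not pass over the 3 ages. Adamtsl4 and Adamtsl5, named after their values were seen, rose between E14.5 and E18.5 in both cell types. In LEC the rises were 0.82 (limma adjusted p = 2.1e-05) and 0.44 (0.0073), and Adamtsl4 was higher in LEC at E18.5 (0.38, 0.021). Adamtsl1 (punctin) read 7.69, 7.68 and 7.66 in E14.5 LEC, 7.75, 7.66 and 7.64 in E16.5 LEC and 7.73, 7.88 and 8.07 in E18.5 LEC. Adamtsl1 read 5.86, 5.27 and 5.77 in E14.5 BEC, 4.91, 5.10 and 5.16 in E16.5 BEC and 5.57, 4.45 and 5.40 in E18.5 BEC. LEC held a narrow range of 7.64 to 8.07, and its lowest array was above the highest BEC array. The difference of 2.48 ± 0.12, or 5.56-fold (limma adjusted p = 2.3e-12), was the largest positive one among the 50 members, and both clusters of the gene were higher in LEC (2.17 and 2.48). Adamtsl3, its close relative, was dim on all 9 LEC arrays (3.11 to 4.18) and read 4.54 to 5.55 on the BEC arrays. LEC has only a bound there, so BEC was at least 1.15-fold higher at E14.5 and at E18.5 and at least 1.5-fold higher at E16.5, where the measured differences (LEC minus BEC) were -1.41 at E14.5 (6e-06), -1.33 at E16.5 (8e-06), then -0.86 at E18.5 (0.0009).

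Between E14.5 and E18.5, 17 of the 50 members rose in LEC, where 19.7% of all genes rose, and 5 fell, where 21.2% fell. In BEC 13 rose, where 13.3% of all genes rose, and 2 fell, where 17.3% fell. The median change of the members was 0.055 in LEC and 0.084 in BEC, against 0.042 and 0.035 for all genes. The count of members that fell in LEC was 3 without LEC E14.5 replicate 1. It was 2 without LEC E14.5 replicate 2 and 2 without LEC E18.5 replicate 2. The count that fell in BEC was 4 without BEC E18.5 replicate 2. The shares of all genes in these fits were not counted. All 6 lymphatic markers fell in BEC, whose mean level for them was 6.38 to 6.69 at E18.5 and 8.09 to 8.44 at E14.5, and the 6 blood endothelial markers of LEC averaged 7.43 to 7.76 at E18.5 and 6.34 to 6.65 at E14.5; the part of either in the age changes was not tested. Between E14.5 and E16.5, which leaves out the E18.5 arrays, 6 rose in LEC (11% of all genes) and 7 in BEC (8.23%), and 4 fell in LEC (8.94%) and 4 in BEC (8.41%).

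Adamts1, Adamts5, Timp2 and Timp3 rose by at least 1 in both cell types, and Mmp2 fell by more than 1 in both. Adamts5 rose by 3.65 ± 0.13 in LEC, or 12.5-fold (limma adjusted p = 1.7e-12), and by 1.42 ± 0.13 in BEC (2.4e-07), where the mean at E14.5 lay below the dim bound with 2 of 3 arrays above it, so the BEC rise starts from background. Adamts1 rose by 2.72 ± 0.13 in LEC (4.8e-11) and by 1.99 ± 0.13 in BEC (3.4e-09). Timp3 rose by 1.05 ± 0.10 in LEC and 1.07 ± 0.10 in BEC, and Mmp2 fell by 1.89 ± 0.13 in LEC (3.3e-09) and by 1.81 ± 0.13 in BEC (1.1e-08). All 5 of these changes had the same direction in LEC and BEC, and each also passed between E14.5 and E16.5: Mmp2 fell by 0.99 in LEC and 1.44 in BEC by then. The mean level of 7 fibroblast markers, genes of a cell type known to make Mmp2, was 6.84 to 7.42 in LEC at E18.5 and 6.45 to 6.87 at E14.5, and 7.01 to 7.06 in BEC at E18.5 and 6.40 to 6.66 at E14.5. Of the 7, Dcn and Postn rose and Lum fell in LEC, Col1a2, Col3a1 and Postn rose in BEC, and their part in the change of Mmp2 was not tested. Mmp14 rose by 0.71 ± 0.12 in LEC (0.0001) and 0.43 ± 0.12 in BEC (0.011). Between E14.5 and E16.5 it stood at -0.19 (0.16) in LEC and 0.01 (0.92) in BEC, and its rise in BEC did not pass without BEC E18.5 replicate 3 (0.33, 0.062).

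**Figure D5:**
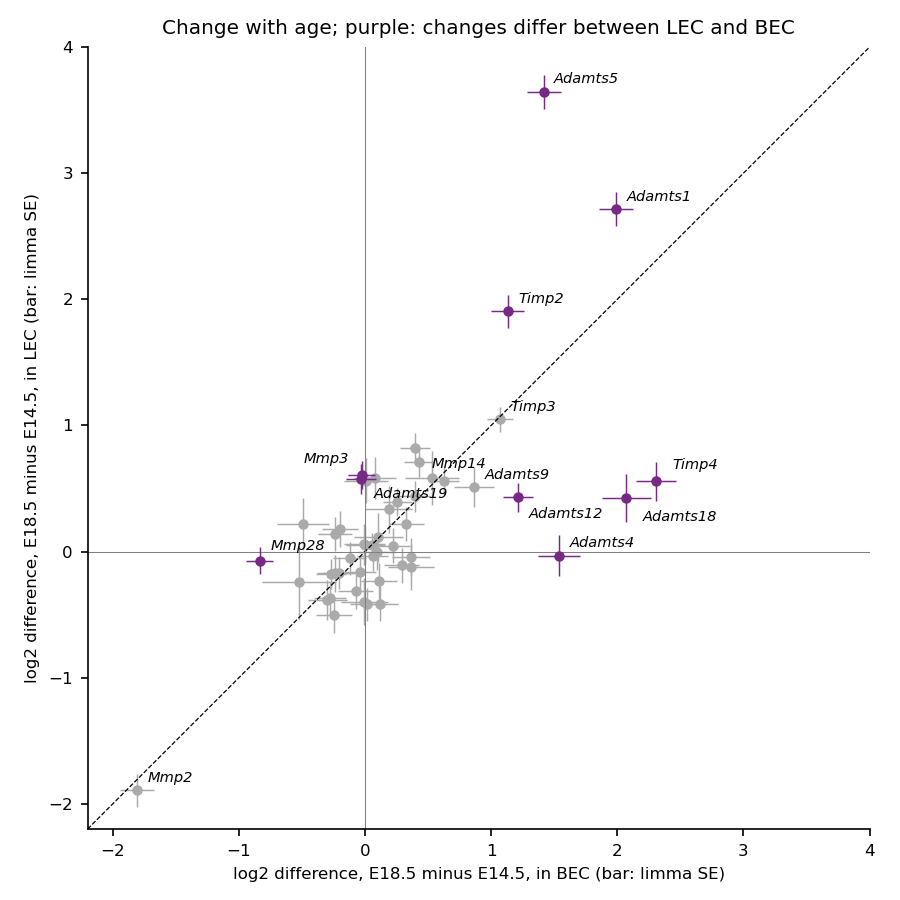
Log2 difference between E18.5 and E14.5 for each of the 50 genes in LEC (y axis) and BEC (x axis), with limma SE bars; purple genes passed the test of the difference between the 2 changes, and the dashed line marks equal change. Adamts5, Adamts1 and Timp2 lie above the line, Timp4, Adamts18, Adamts4 and Adamts12 below it, and Mmp2 and Timp3 near it.

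The change with age differed between LEC and BEC for 10 members, 6 with the larger value in LEC (5.02% of all genes) and 4 with the smaller (3.83%). Timp4, Adamts18, Adamts4 and Adamts12 rose in BEC by 2.31, 2.07, 1.537 and 1.21 between E14.5 and E18.5 (limma adjusted p = 3.7e-09, 1.9e-07, 8.2e-07 and 2.8e-07). At E14.5 Timp4 was above background on 1 of 3 LEC arrays and 1 of 3 BEC arrays, so its changes, and the difference between them, start from background. In LEC, Timp4 rose by 0.56 (0.0073) and Adamts12 by 0.43 (0.0061), whereas Adamts18 (0.43, adjusted p = 0.088) and Adamts4 (-0.03, 0.9) did not pass. Adamts18 passed in LEC without LEC E18.5 replicate 2 (0.58, 0.034) or BEC E16.5 replicate 2 (0.036). By E16.5 the LEC rises of Timp4 (0.17, limma adjusted p = 0.51) and Adamts12 (0.23, 0.12) had not passed. In BEC, Timp4 (0.95, 0.0018), Adamts18 (1.16, 0.001) and Adamts4 (0.54, 0.02) had passed by then, and Adamts12 (0.28, 0.067) had not. Markers of mural cells, the pericytes and smooth muscle cells that wrap blood vessels, also rose in BEC, as these 4 genes did. All 7 (Pdgfrb, Rgs5, Cspg4, Acta2, Myh11, Notch3 and Kcnj8) rose in BEC, with a median of 2.22, and none of the 7 was dim on all arrays. Their mean level per array was 5.50 to 5.51, 5.50 to 5.72 and 5.73 to 6.02 in LEC at the 3 ages in turn, and 5.68 to 5.85, 6.78 to 6.92 and 8.12 to 8.28 in BEC. Their part in the results for these 4 genes was not tested. In LEC the mural markers Rgs5, Cspg4 and Acta2 rose with age and Pdgfrb and Kcnj8 fell. The change was smaller in LEC than in BEC past the test for 6 of the 7. At E14.5 the mural markers Rgs5, Cspg4 and Acta2 were lower in LEC and Pdgfrb was higher. Over the 3 ages all 7 were lower in LEC, with a median of -1.07, and their part in the differences between the cell types was not tested.

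The rises of Adamts5, Timp2 and Adamts1 were larger in LEC than in BEC. The difference between the changes was 2.23 ± 0.19 for Adamts5 (limma adjusted p = 5e-07, with BEC starting from background), 0.77 ± 0.19 for Timp2 (0.012) and 0.72 ± 0.19 for Adamts1 (0.019). That of Adamts1 did not pass without BEC E14.5 replicate 1 (0.64, 0.064) or LEC E14.5 replicate 2 (0.58, 0.061). Macrophage markers also rose in LEC, all 7 of them, with a median of 1.28. In BEC, where Adamts5, Timp2 and Adamts1 rose too, Cd68 rose, Mrc1 fell and the other macrophage markers did not pass. The mean level of the 7 per array was 6.19 to 6.46, 7.02 to 7.67 and 7.67 to 8.35 in LEC at the 3 ages in turn. In BEC it was 5.26 to 5.39, 4.92 to 5.04 and 5.07 to 5.36. Keratinocyte and epithelial markers stood at 5.60 to 5.74, 5.37 to 6.01 and 6.89 to 7.43 in LEC and at 5.18 to 5.43, 5.05 to 5.19 and 5.91 to 6.27 in BEC. The LEC change minus the BEC change was positive past the test for 5 of the 7 macrophage and 3 of the 6 epithelial markers. It was also so for all 6 lymphatic markers. None of the 7 macrophage or 6 epithelial markers was dim on all arrays, and the part of these lists in the results was not tested. Mmp28 fell by 0.83 ± 0.11 in BEC (6.3e-06) and stood at -0.07 ± 0.11 in LEC (0.62), a difference between the changes of 0.76 ± 0.15 (0.0023). Between E14.5 and E16.5 the difference between the changes passed for 1 member with the larger value in LEC (2.77% of all genes), Adamts5 (1.52, 0.00017), and for 3 with the smaller (1.43%), Adamts4 (-1.08, 0.0072), Adamts18 (-1.14, 0.021) and Mmp25 (-0.67, 0.025). It did not pass for Timp4 (-0.78, 0.073), Timp2 (0.56, 0.053), Mmp28 (0.54, 0.056), Adamts1 (0.21, 0.66) or Adamts12 (-0.05, 0.91).

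Some smaller age changes in LEC, read on the brightest cluster of a gene, depended on single arrays. The rise of Adamts9 in LEC (0.51 ± 0.16, limma adjusted p = 0.014) did not pass without LEC E14.5 replicate 3 (0.31, 0.11), and in BEC the gene rose by 0.87 ± 0.16 (0.00031), though not past the test by E16.5 (0.43, 0.1). All 6 clusters of Adamts9 rose past the test, by 0.51 to 1.74 in LEC and by 0.64 to 1.22 in BEC. The LEC change minus the BEC change was positive past the test for 2 of the 6 (0.59, limma adjusted p = 0.02, and 0.77, 0.016). The other 4 clusters did not pass, with the brightest at -0.36 (0.4). The fall of the brightest Adamts3 cluster in LEC (-0.42 ± 0.13, 0.017) did not pass without LEC E14.5 replicates 1 or 2 or LEC E18.5 replicates 2 or 3 (0.05 to 0.1). Of the 16 clusters of Adamts3, 9 fell past the test in LEC, and only 1 had a positive change. Between E14.5 and E16.5 the brightest stood at -0.15 in LEC (limma adjusted p = 0.53). The rise of Adamtsl3 in LEC (0.56, 0.015) was within dim values and did not pass without LEC E14.5 replicate 1 (0.11) or LEC E18.5 replicate 2 (0.067). The fall of Mmp25 in LEC (-0.50 ± 0.14, 0.0084) did not pass without LEC E18.5 replicate 3 (-0.39, 0.051), whereas its change in BEC (-0.25, 0.21) passed without BEC E18.5 replicate 2 (-0.39, 0.047). The change of Adamtsl1 in BEC (-0.49, 0.085) passed without BEC E14.5 replicate 2 (-0.67, 0.032) or BEC E18.5 replicate 1 (-0.71, 0.017), and also passed between E14.5 and E16.5 (-0.57, 0.01), and that of Timp1 in LEC (-0.40, 0.098) without LEC E18.5 replicate 3 (-0.61, 0.012). Adamts4 in LEC, at -0.03 between E14.5 and E18.5, was lower at E16.5 than at E14.5 by -0.54 (0.015).

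Genes that switch these proteases on, and proteins they cut, were counted in the same fit, in which 18.2% of all genes were higher in LEC and 19% lower; each list is short, and nothing particular to it is read from its count. Of 8 plasminogen activation genes measured, 4 were higher in LEC over the 3 ages (Plau, Plaur, Plgrkt and S100a10) and 2 lower (Plat and Anxa2). Plau, which encodes the urokinase that turns plasminogen into plasmin, was higher by 1.55 ± 0.07 (limma adjusted p = 6.7e-13), and its receptor Plaur by 1.03 ± 0.07 (2.8e-10). Of 12 genes for activation, inhibition and clearance of these proteases, 5 were higher (Furin, Pcsk6, Cd44, Thbs1 and Tfpi2) and 2 lower (Pcsk5 and Pcsk7). Pcsk6, a proprotein convertase, was higher by 2.23 ± 0.09 (2.7e-13). Thbs1, which encodes a thrombospondin that binds MMPs, rose by 3.41 ± 0.16 with age in LEC (3.5e-11) and did not pass in BEC (0.22 ± 0.16, 0.34). At single ages Thbs1 was lower in LEC at E14.5 and higher at E16.5 and E18.5, and Furin passed at E16.5 only. Of 5 genes for procollagen processing beside the ADAMTS, Tll1 was higher (1.49 ± 0.08) and Pcolce lower (-1.93 ± 0.08). Of 8 ADAM sheddases, 2 were higher (Adam10 and Adam33) and 3 lower (Adam12, Adam15 and Adam19), with Adam15 at -1.59 ± 0.07. Of 9 proteoglycans, Dcn was higher and Bgn, Fmod and Hspg2 were lower. Hspg2, which encodes the basement membrane proteoglycan perlecan, differed by -1.98 ± 0.07 (1.2e-14). Vcan, the versican cut by ADAMTS1, ADAMTS5 and ADAMTS9, did not differ past the test (-0.15 ± 0.11, 0.32) and rose with age in LEC (1.32 ± 0.19, 2.1e-05) and BEC (1.10 ± 0.19, 0.00022).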

How the data were processed

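The log2 values were made by the authors with RMA in oligo 1.54.1, per the submitters' processing notes, which means background correction, quantile normalization and summary of the probes of a transcript cluster. A joint normalization of the 18 arrays is not given in the sources used here. Of 35556 clusters, 21789 had a single symbol in the platform annotation, 1621 had several and 12146 were unlisted, and the brightest cluster of each symbol gave 19938 genes. Genes were tested with limma 3.58.1 in R 4.3.3 (lmFit and eBayes over 6 group means and 18 arrays, 12 residual degrees of freedom), two-sided, with Benjamini-Hochberg adjustment over all 19938 genes in each of 7 comparisons. Precision is limited by 3 arrays per group. On simulated data for the comparison over the 3 ages, 86 of 100 genes changed by 0.5 and 100 of 100 changed by 1 were recovered, with 16 false calls among 202. In that simulation 200 of 19938 genes were changed and the noise of the arrays was independent. In the real comparison 7404 genes passed, so recovery there may differ. Values are given for members called with a difference of at least 1 in any comparison and, whatever their values, for Ccbe1, Adamts3, Adamts14, Mmp2, Mmp9, Mmp14, Adamts1, Adamts13 and the 4 Timp genes (Adamts2, also on that list, had no cluster of its own symbol alone); members dim on all arrays are named without differences, except one in the section on results for a closer look. The members and lists were chosen with earlier results of these data known. Alternatives were a replicate block, a common median, a filter on dim genes (above the bound on at least 3 arrays), the mean of a gene's clusters, an intensity trend, fits of the compared groups alone, fits without the E18.5 arrays and without each array in turn, and, chosen after seeing the data, a fit of every cluster on its own. Sequences and promoters are from RefSeq (GRCm38.p6). Figures were drawn with matplotlib 3.10.9 in Python 3.11.15.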

Additional observations from a re-analysis of the deposited data

Results flagged for a closer look

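For 10 members the change between E14.5 and E18.5 differed between LEC and BEC by the test of that difference (limma adjusted p under 0.05), and the values here are the LEC change minus the BEC change on the log2 scale. It was 2.23 for Adamts5, 0.77 for Timp2, 0.76 for Mmp28 and 0.72 for Adamts1. It was -1.75 for Timp4, -1.65 for Adamts18, -1.57 for Adamts4 and -0.78 for Adamts12. Timp4 in both cell types and Adamts5 in BEC had E14.5 means below the dim bound, so their values start from background. Adamts19, named here after its values were seen, reached 0.605 (0.03), and was above background on 3 of 18 arrays. Mmp3 reached 0.63 (0.014) with every array at background, so its value has no level above background behind it.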

How the results depend on the processing

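The count of members lower in LEC at E14.5 was 14 with only the compared groups fitted, against 9. Without the E18.5 arrays, the age counts (E16.5 against E14.5) were 6 members higher in LEC, against 17, 7 higher and 4 lower in BEC, against 13 and 2, and 1 with a larger change in LEC, against 6; Mmp14 in LEC turned to -0.19 (limma adjusted p = 0.16), and the cause was not tested. Leaving out 1 array at a time, the count that fell in LEC ranged from 2 to 7 and the count that fell in BEC from 2 to 4. Over the 3 ages those fits gave 5 to 8 members higher and 15 to 19 lower. The shares of all genes were not counted in these fits or in the fit with a block below. Nothing particular to the members is therefore read from those counts. Of 154 gene values, 149 kept direction and call with a common median, 151 with the mean of clusters, 151 with only the compared groups and 154 with an intensity trend; after the filter on dim genes 144 of 147 did. Of 2772 values with 1 array left out, 2721 did, 28 lost a call and 23 gained one. Without the E18.5 arrays, with age changes up to E16.5, 72 of 88 did, 11 lost a call, 4 gained one and 1 reversed. A common median moved the split of all genes over the 3 ages to 3036 higher and 5012 lower, from 3624 and 3780, and at E16.5 to 1987 and 3602, from 2593 and 2439. Deviations of same-numbered LEC and BEC arrays from their group means correlated at -0.107 to 0.13 (3 of 9 over 0.1). Those of arrays with different numbers correlated at -0.176 to 0.159. These values cannot tell whether the numbers pair samples, and because no label says so the main fit had no block. With the replicate number as a block, 6 members were higher and 16 lower over the 3 ages, and all 154 gene values kept direction and call. The block was fixed where LEC and BEC were compared. For age changes within a cell type it was a correlation shared by all genes, 0.015. Those fits were thus nearly the main fit, and nothing is read from their calls being kept. Members near the dim bound limit what the arrays can resolve.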
